A study of Homo sapiens with 4 samples.

Results

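The 8 genes described here encode 3 death receptors (TNFRSF10A, TNFRSF10B and FAS), the adaptor that these receptors share (FADD), the initiator caspases CASP8 and CASP9, the executioner caspase CASP6 and the inflammatory caspase CASP4. They were chosen by name from a table of 61541 gene IDs, and all 8 passed the filter on low counts that left 16863 genes for testing. RNA came from MHCC97H, an established human hepatocellular carcinoma (HCC) cell line, in 2 libraries of cells carrying a control shRNA (shCon) and 2 libraries of cells carrying an shRNA against UBXN1 (shUBXN1). The shRNAs were delivered in a lentiviral vector according to the methods, which name the control shRFP, so both groups carried an shRNA vector. Which UBXN1 shRNA the sequenced cells held, whether they were pools or single clones, and the time after delivery are not given in the sources used here.

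Death receptors are membrane proteins of the TNF receptor superfamily with a cytoplasmic death domain. After binding of TRAIL to TNFRSF10A or TNFRSF10B, or of FAS ligand to FAS, they recruit FADD, which brings in pro-caspase-8 for activation. Caspase-9 is activated instead on the APAF1 apoptosome once cytochrome c has left the mitochondria, and both initiators act on executioner caspases. Caspases are controlled largely by cleavage of the protein, which RNA libraries do not measure. Hepatocytes are known for their sensitivity to FAS, and HCC cells for lowered death receptor signaling, as general background.

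In UBXN1-knockdown cells, FAS mRNA was 2.95-fold higher than in control cells (95% interval 1.94 to 4.47, n = 2 libraries per group), from a very low starting level. FADD, CASP6 and CASP4 were lower, at 78.9%, 69.4% and 83.1% of the control level. The TRAIL receptors moved in opposite directions by small amounts, with TNFRSF10B at 116% and TNFRSF10A at 85.7% of control. CASP8 and CASP9, the initiators of the 2 routes, did not pass the test. Thus 2 of the 8 genes were called higher and 4 lower at an adjusted p under 0.05 in edgeR's quasi-likelihood test. In the same test 56.2% of all genes tested were called, 28% higher and 28.2% lower, so 6 calls among 8 genes stand against a background in which more than every other gene was called. The genes changed little by the measure of all genes: the median size of the log2 fold change was 0.25 over the 8 genes and 0.44 over all genes tested. With 2 libraries per group whose independence as cultures the labels do not state, the p-values measure the spread between these libraries, which may be technical. In bulk RNA, fewer cells expressing a gene and less RNA of it per cell cannot be told apart.

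The libraries held between 23373700 and 27380508 counts. UBXN1 itself was at 1788 and 1817 counts in the controls and at 416 and 433 after knockdown, which left 24.5% of its control level (edgeR, adjusted p = 9.98e-10). Counts on the mitochondrial genome made up 5.28% to 5.59% of shCon and 7.43% to 8.27% of shUBXN1 libraries, and their part in the results below was not tested. All 8 hepatocyte and HCC line markers had at least 10 counts in every library, with a summed level of 5376 to 5424 TPM in shCon and 4617.5 to 5033 TPM in shUBXN1. Most of this came from the keratins KRT8 and KRT18, since ALB, the albumin gene, had 403 to 479 counts in shCon and 104 to 112 in shUBXN1. In edgeR, SERPINA1 and KRT18 were called higher and 4 of the 8 markers lower, ALB among them. Of all genes tested, 28% were called higher and 28.2% lower. Of 6 leukocyte markers, 2 had at least 10 counts in every library (CD14 and CD68), the pan-leukocyte gene PTPRC had at most 4 counts and CD3E had 0 in every library. The summed leukocyte level was 100 to 104 TPM in shCon and 84.4 to 94.3 TPM in shUBXN1. Most of it came from CD68, at 98.4 and 102 TPM in shCon and 92.7 and 83.2 TPM in shUBXN1. For the 4 endothelial markers the sum was 15.2 TPM in both shCon libraries and 31.9 to 32.1 TPM in shUBXN1, and for the 5 fibroblast markers 24.5 to 25.1 and 12.6 to 13.6 TPM. Of these, 2 endothelial markers (PECAM1 and KDR) and 1 fibroblast marker (LUM) had at least 10 counts in every library, and CDH5 was at 0 counts in both shUBXN1 libraries. Most of the endothelial sum came from PECAM1 and KDR. KDR was at 5.09 and 5.35 TPM in shCon and 17.9 and 19.5 TPM in shUBXN1. PECAM1 was at 9.97 and 9.61 TPM in shCon and 13.7 and 12.4 TPM in shUBXN1. Most of the fibroblast sum came from LUM, at 24.1 and 23.9 TPM in shCon and 11.3 and 12.6 TPM in shUBXN1. Of the fibroblast markers 2 were called lower and 1 higher in edgeR. The higher one was COL1A1, at 10 and 4 counts in shCon and 58 and 59 in shUBXN1. The part of these genes in the results was not tested.

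The sequences before the start sites of FAS, FADD and CASP6 are shown because these were the 3 members called in all 13 alternative fits. Each line gives the 250 bases before a RefSeq start on GRCh38.p14, 5′ to 3′ on the strand of the gene, at chr10:88990548-88990797 (plus strand, the most upstream of 3 FAS windows), chr11:70203046-70203295 (plus strand) and chr4:109703446-109703695 (minus strand). Capitals mark matches on either strand to the GC box GGGCGG, the CCAAT box CCAAT, the TATA box TATAAA, the AP-1 motif TGANTCA, the NF-κB motif or the p53 core motif, and no 2 motifs overlapped in these windows.
FAS: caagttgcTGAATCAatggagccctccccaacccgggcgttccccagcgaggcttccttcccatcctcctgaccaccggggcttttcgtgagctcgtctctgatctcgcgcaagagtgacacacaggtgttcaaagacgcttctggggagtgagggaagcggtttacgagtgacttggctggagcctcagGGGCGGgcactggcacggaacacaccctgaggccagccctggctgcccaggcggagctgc
FADD: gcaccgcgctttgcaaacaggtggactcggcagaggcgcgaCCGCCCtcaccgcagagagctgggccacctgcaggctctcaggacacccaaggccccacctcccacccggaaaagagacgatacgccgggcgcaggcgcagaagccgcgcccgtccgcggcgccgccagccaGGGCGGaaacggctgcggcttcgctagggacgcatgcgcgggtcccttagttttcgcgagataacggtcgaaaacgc
CASP6: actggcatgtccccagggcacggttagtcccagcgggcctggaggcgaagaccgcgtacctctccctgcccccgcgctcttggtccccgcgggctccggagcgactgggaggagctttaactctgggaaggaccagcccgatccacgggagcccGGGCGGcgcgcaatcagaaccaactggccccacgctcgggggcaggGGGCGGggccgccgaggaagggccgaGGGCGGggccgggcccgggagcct
The CASP6 window held 3 GC boxes, which begin 96, 50 and 24 bases before the start, and the FADD window held 2. The FAS window held 1 GC box and 1 AP-1 motif, at 60 and 242 bases before the start. A GC box was present in 42.6% and an AP-1 motif in 6.57% of the 35116 windows of this length over all genes. No NF-κB match lay in any window of the 6 members with an entry, and 1.73% of all windows held one. A CCAAT box was present in 32.0%, a TATA box in 10.7% and a p53 core motif in 5.57% of all windows, and none of these lay in the 3 windows printed. Another FAS window held a p53 core motif 122 bases before its start, and 1 window each of CASP8 and CASP9 also held one. GC content was 62.8% in the FAS, 68.8% in the FADD and 74.0% in the CASP6 window, against 38.0% in that of CASP4. These matches describe letters in a short window only.

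**Figure D1:**
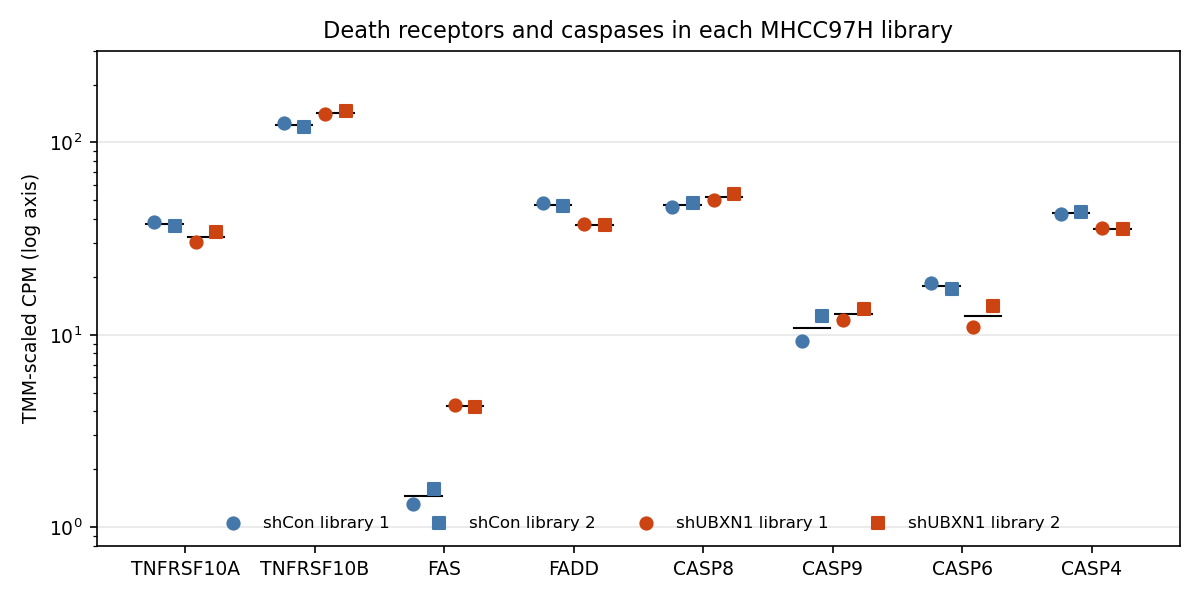
CPM (counts scaled to one library size after TMM) of the 8 genes on a log axis, with 1 point per library and a black line at each group mean (n = 2). FAS sits lowest in every library and its shUBXN1 points at 4.19 and 4.32 CPM lie above those of shCon, while the groups of CASP9 overlap.

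Among the 3 member receptors, FAS (ENSG00000026103, chromosome 10, 88953813 to 89029605, plus strand of GRCh38) had the largest change. Its deposited counts were 35.1 and 37.0 in the controls and 107 and 98.0 after knockdown, or 1.31 and 1.58 CPM against 4.32 and 4.19 CPM after scaling of the library size by edgeR's TMM method. Both knockdown libraries thus lay well above both control libraries, at levels where few reads stand behind each value. The log2 fold change was 1.56 (standard error 0.281, edgeR adjusted p = 0.000285), and FAS was the only member to pass a fold change of at least 2 with an unadjusted p below 0.05. That threshold was passed by 17.9% of all genes tested, 11.8% as higher and 6.09% as lower, and by no member as lower. At the adjusted p, 4 members were lower in edgeR and 3 in DESeq2, against 4751 and 4109 of the 16863 genes tested. Of all genes tested, 93.5% had a lower log2 fold change than FAS. On the log2(TPM + 1) scale, with TPM the count per gene length, scaled to the same total in each library, the difference was 0.39, since all 4 values were under 1 TPM (0.163, 0.189, 0.570 and 0.511). The table gives FAS a length of 16484 bases, by far the longest of the 8, which lowers its TPM, but FAS was also the lowest member in CPM. STAMBPL1 on the same strand shares 0.566% of the exon bases of FAS. It had 249 and 212 counts in shCon and 284 and 330 in shUBXN1, more than FAS. On the opposite strand, ENSG00000286116 shares 6.48% and ACTA2 1.32%, with at most 1.02 and 4 counts in any library. How reads in shared bases were assigned is not given in the sources used here.

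TNFRSF10B (ENSG00000120889, chromosome 8, 23020133 to 23069031, minus strand), which encodes the TRAIL receptor DR5, was the most abundant member in CPM in every library. Its level was 127 and 120 CPM in shCon and 140 and 146 CPM in shUBXN1, so the groups did not overlap. RHOBTB2 on the opposite strand shares 7.53% of the exon bases of TNFRSF10B. It had 1108 and 1026 counts in shCon and 887 and 864 in shUBXN1. TNFRSF10B had 3387 and 2820 counts in shCon and 3463 and 3410 in shUBXN1. The rise of TNFRSF10B by 0.21 on the log2 scale (95% interval 0.05 to 0.37, edgeR adjusted p = 0.0252) was small and rested on few libraries. Without the first or the second shCon library the adjusted p was 0.0688 and 0.425, and with GC content taken into account by an offset for each library it was 0.0666 (edgeR).

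TNFRSF10A (ENSG00000104689, chromosome 8, 23190452 to 23225102, minus strand) encodes DR4, the other TRAIL receptor that can signal death. It was at 38.8 and 36.8 CPM in shCon and at 30.5 and 34.4 CPM in shUBXN1, again without overlap. The log2 fold change was -0.22 (95% interval -0.42 to -0.03) with an adjusted p of 0.0477 in edgeR, close to the threshold. The call was lost in 8 of 13 alternative settings, among them DESeq2 (adjusted p = 0.137) and total count scaling (-0.14, edgeR adjusted p = 0.169), while the sign stayed negative in all 13. It was lost without either shCon library and without the first shUBXN1 library, where the value was -0.14. On the opposite strand, the lncRNA genes TNFRSF10A-DT and TNFRSF10A-AS1 share 9.09% and 7.65% of the exon bases of TNFRSF10A. They had at most 129 and 74.05 counts in any library. Groups did not overlap in CPM for 7 of the 8 members and for 78% of all genes tested (39.4% of all genes lay higher and 38.6% lower).

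Because TNFRSF10B was slightly higher and TNFRSF10A slightly lower, the ratio of their TPM was 2.20 and 2.19 in shCon and 3.09 and 2.85 in shUBXN1, a ratio chosen after the values had been seen. These receptors and the decoys TNFRSF10C and TNFRSF10D lie next to each other on chromosome 8 and are similar in sequence, and the deposited counts of TNFRSF10A and TNFRSF10B carry decimals. How reads that fit more than 1 of these genes were assigned is not given in the sources used here, which makes the split between them uncertain. TNFRSF10B accounted for 68.7% and 68.5% of the summed TPM of the 3 receptors in shCon and for 75.1% and 73.6% in shUBXN1. FAS accounted for 0.173% to 0.218% and 0.513% to 0.565%. The sum itself was 94.2 and 86.5 TPM in shCon and 101.0 and 99.6 TPM in shUBXN1, so it was higher in both knockdown libraries. These sums, shares and ratios are given as descriptions, with no test.

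**Figure D2:**
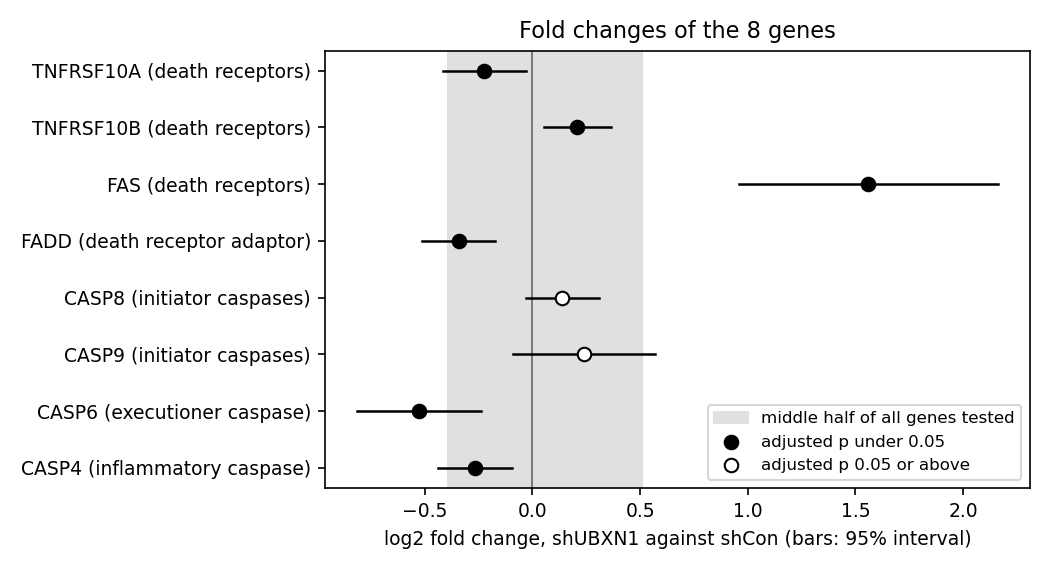
Log2 fold change of each member (points) with its 95% interval from the edgeR fit (bars), filled where the adjusted p was under 0.05; the grey band spans the lower to the upper quartile of all genes tested (-0.39 to 0.51). FAS and CASP6 lie outside the band and the other 6 members inside it.

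FADD (ENSG00000168040, chromosome 11, 70203296 to 70207390, plus strand) links the activated receptors to pro-caspase-8 through its death effector domain. Its level was 48.3 and 46.5 CPM in shCon against 37.5 and 37.3 CPM in shUBXN1, and the replicates of each group were close together. FADD fell by 0.34 on the log2 scale (standard error 0.0795, edgeR adjusted p = 0.00212), and the call held in all 13 alternative settings, where the log2 fold change ranged from -0.43 to -0.26. An lncRNA gene on the opposite strand, ENSG00000254721, covers 59.2% of the exon bases of FADD. That gene had 0 counts in 3 libraries and 21.6 in the second shUBXN1 library, and whether counting used strand is not given in the sources used here.

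Of the initiator caspases, CASP8 (ENSG00000064012, chromosome 2, 201233443 to 201361836, plus strand), which cuts executioner caspases and BID downstream of the receptors, was at 46.4 and 48.4 CPM in shCon and at 50.3 and 54.0 CPM in shUBXN1. Both knockdown libraries were above both controls, but the log2 fold change of 0.14 had a 95% interval from -0.03 to 0.31 (edgeR adjusted p = 0.153). Total count scaling gave 0.22 (edgeR adjusted p = 0.0197) and limma on log2(TPM + 1) gave 0.19 (adjusted p = 0.0375), so CASP8 passed in these 2 settings of 13. Total count scaling also moved the median of all genes from 0.02 to 0.10. An lncRNA gene on the same strand, ENSG00000289698, shares 4.74% of the exon bases of CASP8 and is not among the deposited gene IDs.

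CASP9 (ENSG00000132906, chromosome 1, 15490832 to 15526534, minus strand), the initiator activated on the apoptosome, was at 9.30 and 12.5 CPM in shCon and at 12.0 and 13.7 CPM in shUBXN1. The second control library lay above the first knockdown library, so the groups overlapped. The log2 fold change was 0.24 with a 95% interval from -0.09 to 0.57 (edgeR adjusted p = 0.203), and CASP9 was called in none of the 13 settings. A change of up to 1.48-fold is thus within the interval, and the 2 shCon libraries differed more in CASP9 than the group means did. Per length, CASP8 stood at 5.92 to 7.60 times the TPM of CASP9 in shCon and at 6.02 to 6.41 times in shUBXN1, which overlap. CELA2B on the opposite strand shares 1.92% of the exon bases of CASP9 and had 0 counts in every library.

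CASP6 (ENSG00000138794, chromosome 4, 109688622 to 109703583, minus strand), an executioner whose known substrates include lamin A, had the largest fall. It was at 18.6 and 17.4 CPM in shCon and at 10.9 and 14.1 CPM in shUBXN1. The knockdown libraries differed from each other by nearly as much as the nearer of them differed from the controls. MCUB on the opposite strand shares 5.04% of the exon bases of CASP6. It had 229 and 162 counts in shCon and 207 and 229 in shUBXN1. CASP6 had 496 and 408 counts in shCon and 270 and 330 in shUBXN1. Its log2 fold change was -0.53 (standard error 0.133, edgeR adjusted p = 0.00384), it was -0.74 without the second and -0.36 without the first shUBXN1 library, and the call held in all 13 settings.

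CASP4 (ENSG00000196954, chromosome 11, 104942866 to 104969366, minus strand) encodes the caspase that senses intracellular lipopolysaccharide and cuts gasdermin D. It was at 42.4 and 43.5 CPM in shCon and at 35.9 and 35.5 CPM in shUBXN1, with groups that lay apart. The log2 fold change was -0.27 (standard error 0.0807, edgeR adjusted p = 0.0114). The call was lost with total count scaling (-0.18, edgeR adjusted p = 0.0659) and without the second shCon library (-0.26, edgeR adjusted p = 0.114), and held in the other 11 settings.

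Ordered by mean TPM in shCon, the members were CASP4 (66.5), TNFRSF10B (62.0), FADD (55.7), CASP8 (32.4), TNFRSF10A (28.2), CASP6 (22.1), CASP9 (4.88) and FAS (0.176). In shUBXN1 the order differed at the top, with TNFRSF10B (74.6) above CASP4 (57.6), followed by FADD (45.8), CASP8 (37.2), TNFRSF10A (25.1), CASP6 (15.9), CASP9 (5.99) and FAS (0.541). No neighbours in either order overlapped between libraries. In shCon, however, the TNFRSF10B libraries (64.7 and 59.3 TPM) differed from each other by more than they differed from the nearest libraries of CASP4 (66.4) and FADD (57.6), so the order of these 3 is not resolved beyond the spread.

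Other genes of the same pathways were read from fixed lists of 68 genes, of which 54 were tested, 18 were called higher and 16 lower at an adjusted p under 0.05 (edgeR). The counts below stand against 28% of all genes tested called higher and 28.2% lower, 56.2% in all. Their median log2 fold change was 0.09, against 0.02 over all genes tested. The ligands were scarce in these cells. FASLG and TNF had at most 1 and 3 counts in any library, which is at or under the 3 counts that a count of 0 allows, and were not tested. TNFSF10, which encodes TRAIL, had 52 and 21 counts in shCon and 62 and 38 in shUBXN1, with overlap and an adjusted p of 0.290, and TNFSF15 was at a log2 fold change of 0.04 (edgeR, adjusted p = 0.839).

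Of 6 other death domain receptors, 3 were tested, 1 was called higher and 2 lower. TNFRSF1A, the main receptor of TNF, was the most abundant, at 334 and 341 TPM in shCon and 237 and 234 TPM in shUBXN1, and fell by 0.58 on the log2 scale (edgeR, adjusted p = 1.66e-05). TNFRSF21, which encodes DR6, fell by 1.22 (edgeR, adjusted p = 1.50e-08). TNFRSF25, which encodes DR3, rose from 4.75 and 10.1 counts to 61.9 and 43.9 counts, a log2 fold change of 2.84 (standard error 0.488) at very low levels, and had too few counts to be tested at a minimum of 10 in every library. Of 4 decoy receptors, which bind ligand without passing on a death signal, 3 were tested, 1 was called higher and 2 lower. TNFRSF6B (DcR3) rose by 2.68 on the log2 scale (edgeR, adjusted p = 1.58e-07), and TNFRSF11B fell by 0.81 (edgeR, adjusted p = 0.00550). All exon bases of TNFRSF6B also belong to the readthrough gene RTEL1-TNFRSF6B on the same strand, which makes its value uncertain. TNFRSF10D, the more abundant decoy for TRAIL, was called lower (-0.41, edgeR adjusted p = 0.00481), but not without the second shCon library (edgeR adjusted p = 0.0665). The TPM of both membrane decoys for TRAIL over that of TNFRSF10A and TNFRSF10B was 0.139 and 0.167 in shCon and 0.112 in both shUBXN1 libraries.

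Of 11 tested adaptors and regulators of the receptor complex, 4 were called higher and 3 lower. RIPK1, among the lower ones, was at -0.22 (edgeR, adjusted p = 0.0305). It kept its call in 7 of 13 alternatives and lost it in DESeq2 (adjusted p = 0.102). CFLAR, which encodes c-FLIP, the catalytically inactive relative of caspase-8 that binds FADD, rose by 0.44 on the log2 scale (standard error 0.0800, edgeR adjusted p = 0.000319). PEA15, a death effector domain protein that binds FADD and caspase-8, rose by 0.83 (edgeR, adjusted p = 1.20e-06). The call of CFLAR and that of PEA15 held in all 13 settings. The ratio of CFLAR to CASP8 in TPM was 2.06 and 1.92 in shCon and 2.69 and 2.21 in shUBXN1, so the knockdown libraries lay above the controls but far from each other.

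**Figure D3:**
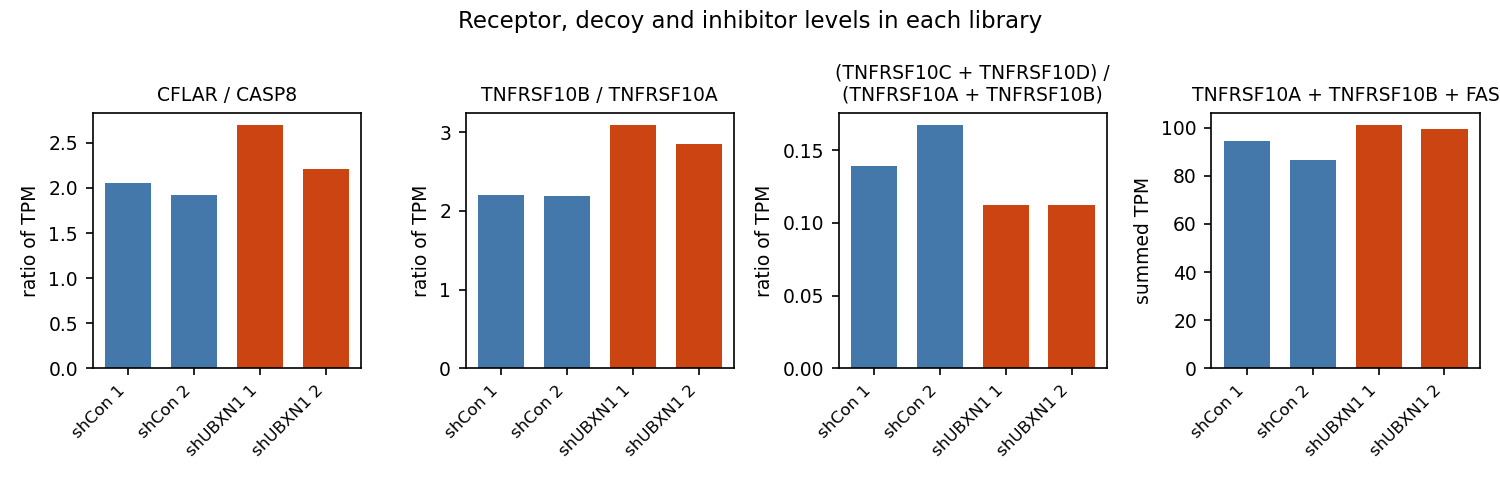
Ratios of TPM and the summed TPM of the 3 death receptors, with 1 bar per library (shCon blue, shUBXN1 orange). The ratio of CFLAR to CASP8 runs from 1.92 to 2.06 in shCon and from 2.21 to 2.69 in shUBXN1, and the decoy ratio is lower in both shUBXN1 libraries.

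In the group of apoptosome and released mitochondrial proteins, 1 of 6 was called higher and 2 lower. Without the first or the second shCon library 1 was lower, since DIABLO was lost (edgeR adjusted p of 0.0586 and 0.198), as it was with total count scaling, and limma on log2(TPM + 1) called 3 higher. HTRA2, a mitochondrial protease that blocks inhibitors of apoptosis once released, rose by 1.22 on the log2 scale (edgeR, adjusted p = 5.32e-08), and genes on the opposite strand share exon bases with it, LOXL3 with 27.5%. CYCS, which encodes cytochrome c, fell by 0.44 (edgeR, adjusted p = 0.000380). AIFM1 was at 0.17 (edgeR, adjusted p = 0.0884) and was called higher in 6 of the 13 alternatives, among them total count scaling (edgeR adjusted p = 0.00754) and the fit without the first shUBXN1 library (edgeR adjusted p = 0.000728). APAF1, the scaffold on which caspase-9 is activated, was at -0.06 with an adjusted p of 0.638 in edgeR.

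Of 8 other caspases, 5 were tested and 1 was called. CASP2 fell by 1.21 on the log2 scale (standard error 0.0852, edgeR adjusted p = 3.70e-08), a larger fall than that of any member. CASP12 and CASP14 had 0 counts in every library, which allows up to 3 counts in each.

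All 6 listed genes of the BIRC family were called, 4 higher and 2 lower, although BIRC6 lost its call in 2 of the 13 alternative fits. XIAP fell by 0.49 on the log2 scale (edgeR, adjusted p = 5.34e-05), and its call held in all 13 settings. BIRC7 (livin) rose by 3.35 and BIRC3 (cIAP2) by 1.89 on the log2 scale, whereas BIRC5 (survivin), which also serves in cell division, fell by 0.87 (edgeR, adjusted p of 2.19e-10, 1.02e-09 and 3.29e-06). The inflammasome and gasdermin list, which includes the gasdermin D gene GSDMD, had 5 of 7 tested genes called higher in edgeR and 4 in DESeq2. Only 3 were called higher without the first shCon library, where IL1B (edgeR adjusted p = 0.0788) and IL18 were lost. GSDMD lost its call in 4 of 13 alternatives and was at 0.06 with the GC trend removed. None was lower in either tool or at an unadjusted p under 0.05 in edgeR. GSDMB, which encodes a pore-forming gasdermin, rose by 2.46 (edgeR, adjusted p = 2.49e-09) and IL18, a cytokine precursor cut by inflammatory caspases, by 0.30 (edgeR, adjusted p = 0.00742, and 0.121 without the first shCon library). PYCARD, the inflammasome adaptor, was at -0.12 (edgeR, adjusted p = 0.258) and was called lower with the GC trend removed (-0.26, edgeR adjusted p = 0.0215).

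**Figure D4:**
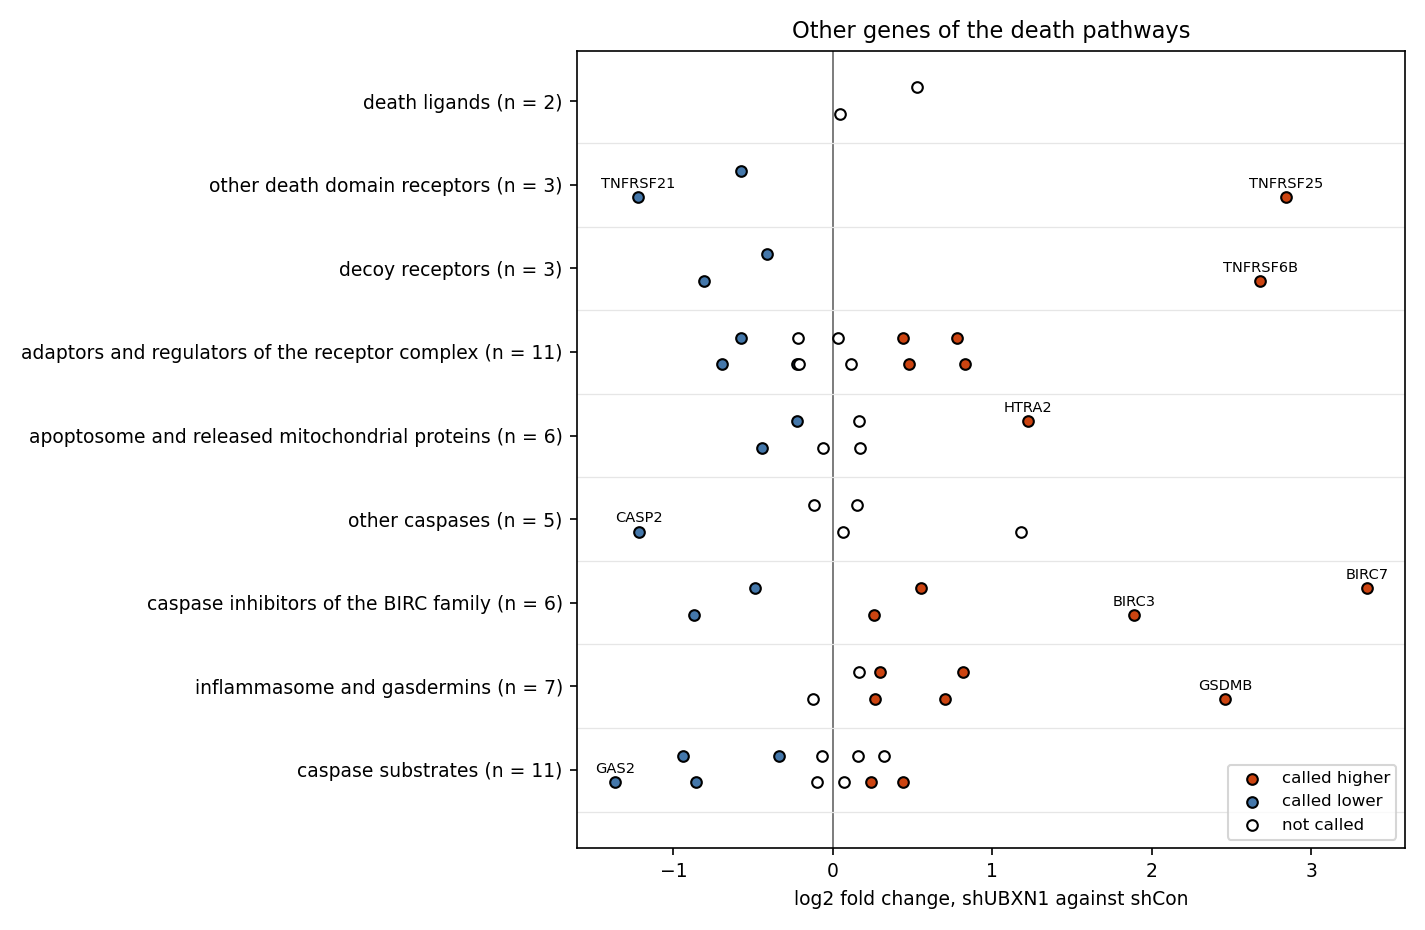
Log2 fold changes of the 54 tested genes of the pathway lists, 1 point per gene, filled where the adjusted p was under 0.05 and labelled where the fold change was also at least 2. The BIRC family and the receptor lists spread widest, from -0.87 to 3.35 and from -1.22 to 2.84, while the ligands show no call.

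Caspase substrates were mixed, with 2 of 11 called higher and 4 lower. The higher count was 1 without the first or the second shCon library, where SPTAN1 was lost (edgeR adjusted p of 0.0593 and 0.423), and 4 with total count scaling. LMNA, the lamin A/C gene, fell by 0.86 on the log2 scale (edgeR, adjusted p = 1.55e-06), GAS2 by 1.37 (edgeR, adjusted p = 1.15e-05) and PARP1 by 0.34 (edgeR, adjusted p = 0.00241). The PARP1 call was lost without the second shCon library (edgeR adjusted p = 0.0607). BID, which caspase-8 cuts to link the receptor route to the mitochondria, was at -0.10 (edgeR, adjusted p = 0.270). BID and APAF1 were named after their values had been seen.

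**Figure D5:**
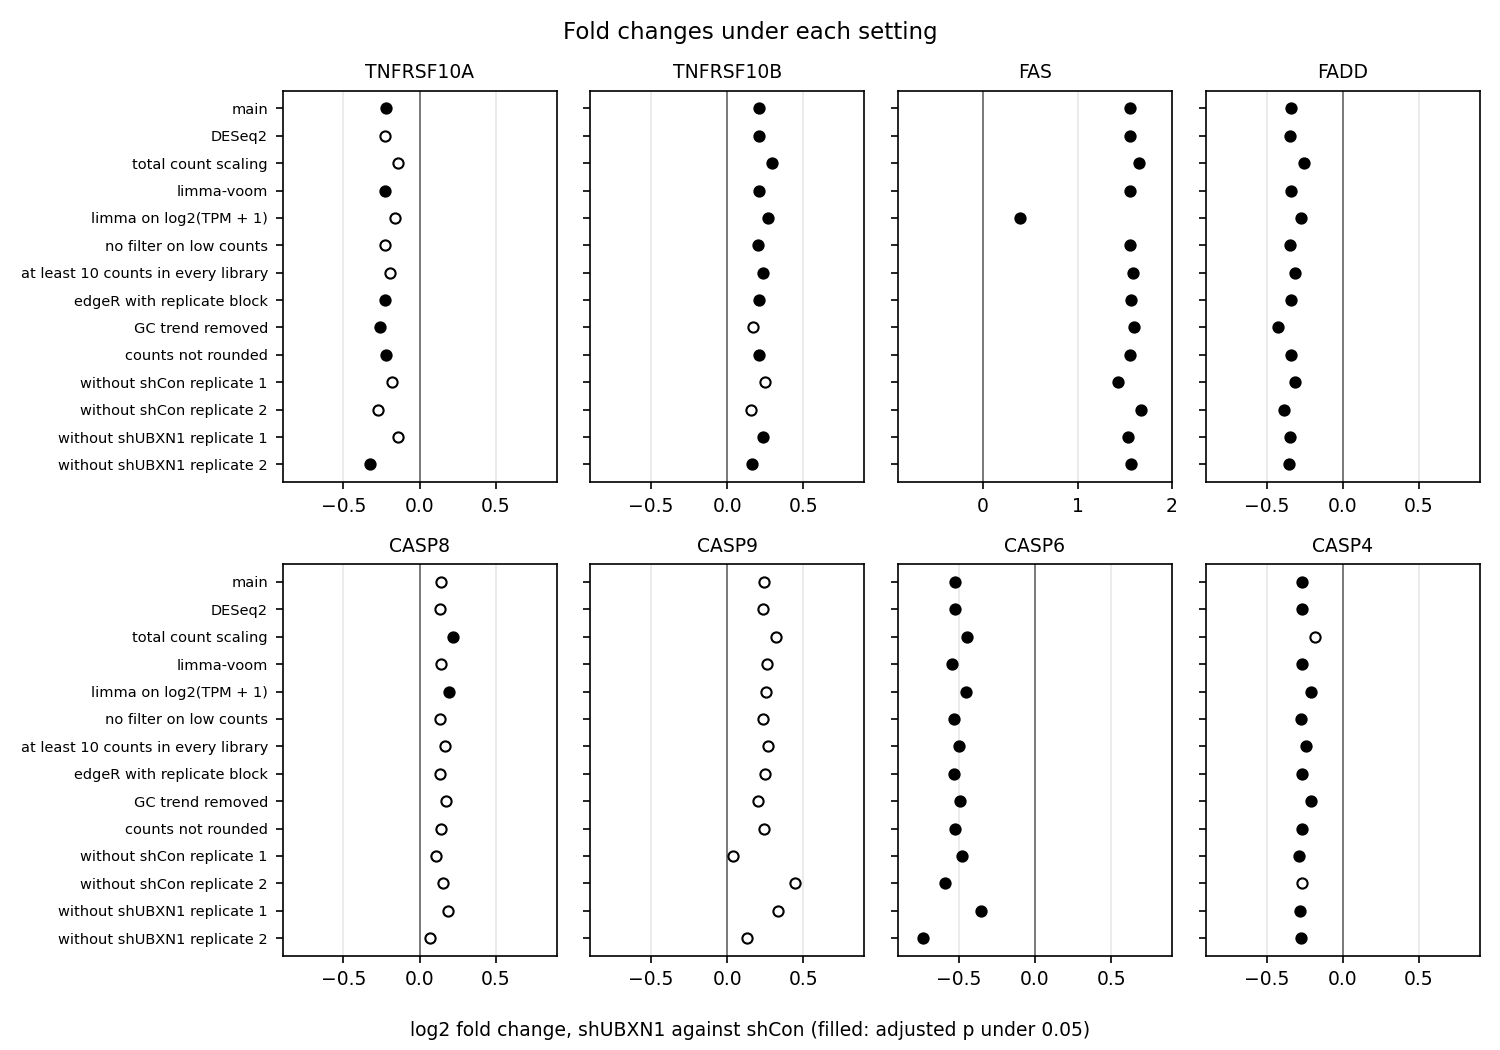
Log2 fold change of each member as reported and under 13 alternatives, filled where the adjusted p was under 0.05; the FAS panel has a wider axis. FAS, FADD and CASP6 are filled throughout, CASP9 in none, and TNFRSF10A in 5 of the 13 alternatives.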

How the data were processed

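RNA was extracted with TRIZOL, and mRNA libraries were prepared with a VAHTS kit per the labels (the methods name TruSeq) and sequenced in paired ends. The submitters' processing notes list HISAT2 2.0.4, StringTie 1.3.0 and GRCh37, whereas the methods name GRCh38; the counting step, annotation release and use of strand are not given in the sources used here. The authors deposited expected counts per gene, not normalized, with a gene length. Of 61541 IDs, 61369 (99.7%) matched GENCODE 44, a GRCh38 annotation, which gave symbols, positions and overlaps. The start sites came from RefSeq.

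Counts were rounded, filtered with filterByExpr, TMM-normalized and tested with glmQLFit and glmQLFTest (edgeR 4.0.16, R 4.3.3), without a block. CPM used the TMM-scaled library sizes, and TPM the deposited lengths. Standard errors were the log2 fold change over the square root of F, with 95% intervals from the test's degrees of freedom. Calls used a Benjamini-Hochberg adjusted p under 0.05 over 16863 genes. Total counts of 23373700 to 27380508 set the counting precision. The scripts were run on simulated counts with planted changes larger than those of most members, so that run says nothing on calls of small changes. Alternatives used DESeq2 1.42.0, limma 3.58.1 (voom and log2(TPM + 1)), other scaling, filters, a GC trend, unrounded counts, a replicate block and 4 fits leaving out a library. Members and lists were chosen with earlier results of these data known. Pathway genes were named where they were called with at least a 2-fold change, or were among the 2 with the highest TPM of their list. FASLG, TNF, TNFRSF11B, RIPK1, APAF1, BID, XIAP, BIRC6, IL1B, GSDMD, SPTAN1, DIABLO, CASP12 and CASP14 were named after their values had been seen. Some genes that this rule names are not reported here.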

Additional observations from a re-analysis of the deposited data

How the results depend on the processing

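The sign of the log2 fold change held for every member in all 13 alternatives. FAS, FADD and CASP6 were called in all of them and CASP9 in none. TNFRSF10A lost its call with DESeq2 (-0.22), total count scaling (-0.14), limma on log2(TPM + 1) (-0.16), no filter on low counts (-0.23) and at least 10 counts in every library (-0.20). With total count scaling, CASP4 also lost its call (-0.18) and CASP8 gained one (0.22). In that fit 2 members and 3969 of the 16863 genes tested were called lower. The fit with limma on log2(TPM + 1) also called CASP8 (0.19). With the GC trend removed TNFRSF10B lost its call (0.17). In that fit 1 member and 4534 of the 16830 genes tested were called higher. By a change of at least 2-fold with an unadjusted p below 0.05, 1997 genes were higher and 1027 lower, against 4727 and 4751 at the adjusted p, and 1 member was higher and 0 were lower. Each library was also left out in turn, which leaves 1 library in a group. The log2 fold changes then ranged from -0.33 to -0.14 (TNFRSF10A), 0.15 to 0.25 (TNFRSF10B), 1.43 to 1.68 (FAS), -0.39 to -0.31 (FADD), 0.07 to 0.19 (CASP8), 0.04 to 0.45 (CASP9), -0.74 to -0.36 (CASP6) and -0.29 to -0.26 (CASP4). Replicate numbers gave no pairing by the labels, and deviations of same-numbered libraries correlated at 0.0775; with a replicate block 2 members were called higher and 4 lower (FAS at 1.56), no call of a member changed, and 10023 genes were called against 9478. With total count scaling the median log2 fold change moved from -0.04 to 0.04 over the members and from 0.02 to 0.10 over all genes tested. Some settings test fewer genes or use fewer libraries, and the cause of these changes was not tested. Depth limits FAS most, at 35.1 to 107 counts.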

Other observations

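For the member with the largest rise and the one with the largest fall, the protein-coding genes with the nearest profile over the 4 libraries were sought, by the root mean square distance between log2(CPM + 1) values centred on each gene's mean, among 13510 genes. Nearest to FAS were ARHGEF25 (distance 0.0174), TBKBP1 (0.0216) and SYT17 (0.0228). Their log2 fold changes in edgeR were 4.26, 1.23 and 1.14 against 1.56 for FAS. The pseudocount of 1 CPM compresses the changes of low genes on this scale. Nearest to CASP6 were C1orf122 (0.0149), TMEM117 (0.0238) and RALA (0.0267), with log2 fold changes of -0.49, -0.65 and -0.53. These distances over 4 libraries in 2 groups are descriptions.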
